A study of Mus musculus with 6 samples.

Results

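Cell cycle and p53 target genes were followed in primary mouse hepatocytes treated with IL-1β. The 46 members, among 23282 genes in the table, were picked by gene symbol: D-type, E, A and B cyclins with their kinases, CDK inhibitors, RB, E2F and Myc, replication and mitotic genes, and p53 with its inhibitor Mdm2 and target genes. Hepatocytes of C57BL6/N mice were released from the liver with collagenase, passed through a filter and plated. The 3 control samples stayed untreated and the other 3 received recombinant IL-1β for 24 h, and the labels give no dose, age or sex. RNA was sequenced from the 3′ ends of polyadenylated transcripts (QuantSeq). The labels give every group 3 numbered samples, whereas the design text speaks of 2 and then lists 3, and nothing says whether samples came from separate animals or cultures. The p-values therefore measure only the spread between these samples, which may be technical.

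Cells pass from rest into S phase when D-type cyclins with CDK4 or CDK6, and then E-type cyclins with CDK2, phosphorylate RB and release the E2F factors that switch on replication genes. A and B cyclins with CDK1 then drive mitosis, and CDK inhibitors hold these kinases back. The transcription factor p53 answers to DNA damage and other stress by raising the CDK inhibitor p21 (Cdkn1a), its own inhibitor Mdm2 and a set of growth-restraining genes. Hepatocytes of the adult liver are mostly at rest, can re-enter the cycle after tissue loss, and seldom divide in plain culture.

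Of the 46 members, 40 had enough counts to be tested. With edgeR's quasi-likelihood test and Benjamini-Hochberg adjustment, 9 of these 40 (22.5%) changed at an adjusted p below 0.05, against a background of 13.4% of the 11657 genes tested. IL-1β lowered 6 members, the cyclin Ccnd1, the CDK inhibitor Cdkn2b, the replication helicase subunits Mcm2 and Mcm6, and the mitotic genes Top2a and Birc5, which is 15% against 6.44% of all genes. It raised 3 members, Myc, the kinase Plk2 and the antiproliferative gene Btg1, which is 3 of 40 against 6.97% of all genes. The median log2 fold change over the 40 was −0.12, with 30 members below 0 and 10 above, beside a median of −0.002 over all genes tested. No further member had an unadjusted p below 0.05 in edgeR, so that 9 of 40 (22.5%) passed this cut too. Over all genes tested 2746 of 11657 did, and at this cut the share of the members was not above that of all genes.

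**Figure D1:**
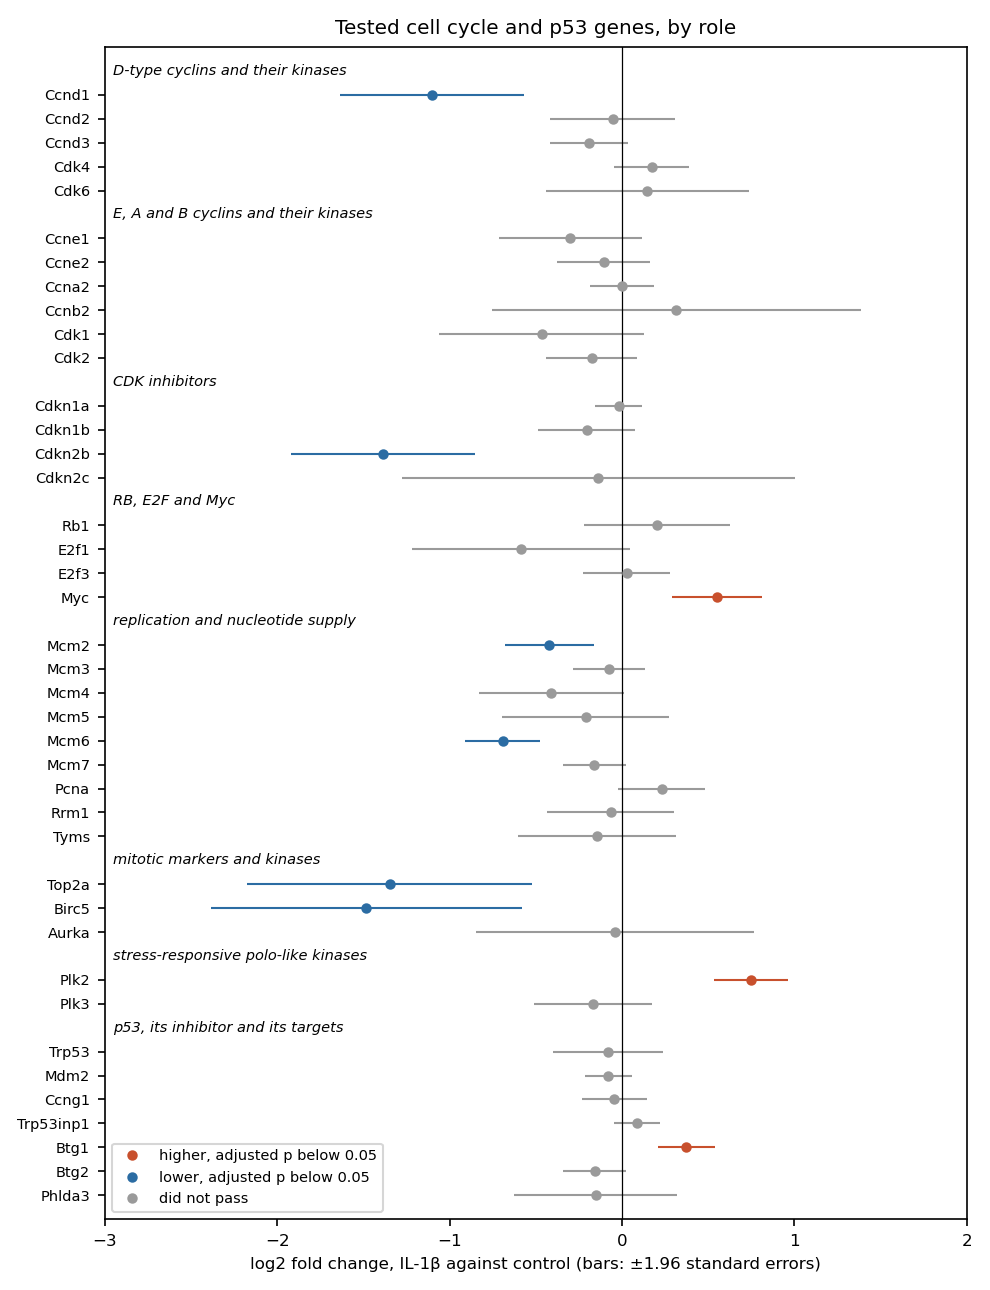
Log2 fold change of each tested member (IL-1β over control, points) with its 95% interval (bars), ordered by role. The 6 genes that fell lie between −0.42 and −1.48 and the 3 that rose between 0.37 and 0.75, while most p53 genes lie near 0.

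Promoter windows from RefSeq on GRCm38.p6, covering 250 bases before to 50 after the transcription start, were at hand for 37 of the 46 members. They were searched on both strands. An E2F site was taken as TTTCGCGC, TTTGGCGC or TTTCCCGC. A cell-cycle homology region, or CHR element, was taken as the letters TTTGAA or, in its other common form, TTCGAA. The CCAAT box was searched by the letters of its name and NF-κB by its usual degenerate consensus. E2F letters were in 18.6% of the 43 member windows and in 1.84% of all 32851 windows, and CCAAT in 62.8% and 37.4%. The CHR letters were in 23.3% and 19.2%, and the NF-κB consensus in 6.98% and 4.51%. The windows of 4 genes that fell are printed because they show how differently built the promoters of these genes are, with capitals marking any of the motifs, matches to the opposite strand and overlapping matches included.
Mcm6, chr1:128359656-128359955, minus strand: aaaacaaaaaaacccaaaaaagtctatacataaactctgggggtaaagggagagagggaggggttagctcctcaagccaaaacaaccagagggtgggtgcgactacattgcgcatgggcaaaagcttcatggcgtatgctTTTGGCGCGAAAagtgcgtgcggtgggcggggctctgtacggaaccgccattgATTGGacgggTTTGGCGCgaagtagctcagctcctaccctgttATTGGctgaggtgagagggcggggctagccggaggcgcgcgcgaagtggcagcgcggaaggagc
Mcm2, chr6:88898731-88899030, minus strand: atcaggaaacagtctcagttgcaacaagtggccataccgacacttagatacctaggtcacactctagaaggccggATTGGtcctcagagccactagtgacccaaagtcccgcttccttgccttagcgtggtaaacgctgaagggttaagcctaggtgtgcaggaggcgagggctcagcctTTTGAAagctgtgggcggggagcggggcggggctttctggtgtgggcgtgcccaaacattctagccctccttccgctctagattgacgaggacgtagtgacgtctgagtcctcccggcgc
Top2a, chr11:99024140-99024439, minus strand: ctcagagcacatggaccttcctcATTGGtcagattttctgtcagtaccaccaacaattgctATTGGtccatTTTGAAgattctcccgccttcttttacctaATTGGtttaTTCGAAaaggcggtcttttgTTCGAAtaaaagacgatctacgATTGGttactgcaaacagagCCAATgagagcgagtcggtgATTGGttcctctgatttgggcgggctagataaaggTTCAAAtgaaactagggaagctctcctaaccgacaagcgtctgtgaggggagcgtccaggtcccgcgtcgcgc
Birc5, chr11:117848987-117849286, plus strand: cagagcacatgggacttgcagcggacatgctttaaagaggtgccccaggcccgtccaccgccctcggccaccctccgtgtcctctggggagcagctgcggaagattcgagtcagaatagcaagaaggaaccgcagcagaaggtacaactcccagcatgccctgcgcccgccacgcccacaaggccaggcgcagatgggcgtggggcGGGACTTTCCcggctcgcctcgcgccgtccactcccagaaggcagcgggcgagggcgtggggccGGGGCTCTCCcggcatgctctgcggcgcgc
The Mcm6 window held E2F letters that begin at −110, −106 and −47 from the start site, the first pair overlapping on opposite strands. Mcm2, a subunit of the same helicase, held no E2F letters in this window but a CHR element at −70 and a CCAAT box at −175. Top2a held 4 CHR matches and 6 CCAAT boxes, an arrangement known from mitotic genes. Birc5 held none of the cell-cycle letters and the NF-κB consensus at −44 and again at 21, and its transcript fell. Such a match is a description of letters and was not tested as a binding site.

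E2F letters were in the windows of 8 members, Cdk1, Cdk2, Cdkn2a, E2f3, Mcm3, Mcm5, Mcm6 and Mcm7. Those of Mcm3 lay after the start site, at 20 and 39. Of these 8 members 7 were tested and only Mcm6 changed. Among all 362 tested genes with these letters, 5.52% fell and 3.59% rose with a median log2 fold change of −0.02, beside 6.39% and 6.62% of the 8843 tested genes that had any promoter entry. CHR letters were in the windows of 8 tested members, of which Cdkn2b, Mcm2 and Top2a fell, and 7.68% of the 1420 tested genes with these letters fell. The NF-κB consensus was in the windows of 3 members, Birc5, Mcm7 and Trp53, all tested, and only Birc5 changed. Among all 545 tested genes with it, 9.17% fell and 12.1% rose, beside the same 6.39% and 6.62%. What these letters had to do with the changes was not tested.

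The CPM values below are read counts scaled to a common TMM-adjusted library total, each mean is given ± SD with n = 3 per group, and samples are given in the order of their replicate number. In 3′ sequencing a count stands for a transcript end, so these levels are not divided by length and are compared between samples of the same gene. Fewer cells of a type and less RNA per cell cannot be told apart in such bulk samples. In 14 of the 40 tested members the groups did not overlap, which is to be read beside 28.2% of all genes tested, and 3 against 3 samples cannot give an exact two-sided permutation p below 0.1.

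Among the D-type cyclins, which carry growth signals to the cycle, Ccnd1 fell and the others did not pass the test. Ccnd1 stood at 7.23, 6.8 and 8.46 CPM in the control samples and at 2.46, 4.04 and 3.9 in the IL-1β samples. The groups were clear of each other, with the first IL-1β sample lowest. The log2 fold change was −1.10 ± 0.27 (SE), a mean of 3.47 ± 0.875 against 7.5 ± 0.862 CPM, with an adjusted p of 0.0062 by edgeR. Of the reads of Ccnd1, Ccnd2 and Ccnd3 together, Ccnd1 held 13.9%, 11.7% and 15.5% in controls and 6.02%, 8.32% and 8.05% with IL-1β. The gene lies at chr7:144929931-144939925 on the minus strand (GRCm38), and its 3′ end overlaps Oraov1 on the opposite strand. Oraov1 was at 9.33 ± 0.769 CPM in controls and 10.6 ± 1.6 with IL-1β, a log2 fold change of 0.18 with an adjusted p of 0.656. Whether the counting used strand is not given in the sources used here. Ccnd2 and Ccnd3 had log2 fold changes of −0.05 and −0.19, and Cdk6 one of 0.15, none past the threshold. Cdk4, the partner kinase of the D cyclins, was at 33.2, 28.9 and 28.9 CPM in controls and at 34.2 in each IL-1β sample. The IL-1β samples were all above the controls, yet the log2 fold change of 0.17 (95% interval −0.04 to 0.39) gave an adjusted p of 0.382. Opposite-strand genes also overlap the 3′ ends of Cdk4 (Tspan31, 26.4 and 23.9 CPM in controls and with IL-1β) and Ccnd3 (Bysl, 82.9 and 80.1). How many of the reads given to Cdk4 and Ccnd3 came from them was not tested.

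None of the 6 tested E, A and B cyclins and their kinases passed the threshold in edgeR, DESeq2 or limma. In edgeR 13.4% of all genes tested passed, and 0 of these 6 had an unadjusted p below 0.05. Cdk1, the kinase of mitotic entry, was at 4.98, 4.21 and 5.14 CPM in controls and at 2.57, 3.94 and 3.81 with IL-1β. All IL-1β samples lay below all controls, but the log2 fold change of −0.47 had a 95% interval from −1.06 to 0.13 and an adjusted p of 0.395. Ccna2, the cyclin of S phase and early mitosis, was at 48.8, 46.9 and 50.6 CPM in controls and at 46.8, 51.4 and 47.9 with IL-1β. Its groups were interleaved, with a 95% interval of the log2 fold change from −0.19 to 0.18. Its 3′ end overlaps Exosc9, an exosome subunit gene on the opposite strand, which had a mean of 63.6 CPM in both groups. How many of the reads given to Ccna2 came from Exosc9 was not tested. Ccnb1, the main mitotic cyclin, had 5, 0 and 0 counts in controls and 4, 5 and 2 with IL-1β, too few to test, and 26% of the read-length windows in its last 500 bases also occur in another gene. Ccnb2, Ccne1, Ccne2 and Cdk2 had log2 fold changes from −0.30 (Ccne1) to 0.32 (Ccnb2).

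Cdkn2b, which encodes the CDK4/6 inhibitor p15, fell, while Cdkn1a, which encodes p21 and is the classical p53 target, did not pass the test. Cdkn2b was at 7.05, 7.61 and 8.16 CPM in controls and at 2.35, 3.27 and 3.07 with IL-1β. Every IL-1β sample was below every control by more than the spread within either group. This gave a log2 fold change of −1.38 ± 0.27 (SE) with an adjusted p of 0.00068 by edgeR, and the gene lies at chr4:89306289-89311032 on the minus strand. Cdkn1a was at 346, 340 and 339 CPM in controls and at 368, 342 and 303 with IL-1β. The IL-1β samples spanned the control range, and the 95% interval of the log2 fold change ran from −0.15 to 0.12. Cdkn1b, which encodes p27, and Cdkn2c, which encodes p18, had log2 fold changes of −0.21 and −0.14. Cdkn2a, the neighbour of Cdkn2b that encodes p16 and p19Arf, had 2 to 4 counts in every library and was not tested.

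Myc, a transcription factor that drives growth and cycle entry, rose. It was at 40.2, 23.7 and 33.6 CPM in controls and at 48.5, 46.9 and 47.4 with IL-1β. The controls were spread widely and the IL-1β samples closely, with the first control nearest to them. The log2 fold change was 0.55 ± 0.13 (SE) with an adjusted p of 0.00518 by edgeR. Leaving out a single library moved it to values between 0.37 and 0.74, and the call held each time. The gene lies at chr15:61985341-61990361 on the plus strand. E2f1, an activating E2F, was at 3.38, 5.55 and 4.33 CPM in controls and at 2.67, 3.17 and 2.98 with IL-1β. All of its IL-1β samples lay lower, but the log2 fold change of −0.59 (95% interval −1.22 to 0.04) did not pass, with an adjusted p of 0.287. Rb1 and E2f3 had log2 fold changes of 0.21 and 0.03.

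Among the genes of replication and nucleotide supply, 2 of 9 tested fell (22.2%), against 6.44% of all genes tested. Both encode subunits of the MCM2-7 helicase that unwinds DNA at origins. Mcm6 was at 39.8, 38.1 and 39.6 CPM in controls and at 23.5, 23 and 26.2 with IL-1β. The gap between the groups was wider than the spread within either. This gave a log2 fold change of −0.69 ± 0.11 (SE) with an adjusted p of 6.18e-05 by edgeR. Mcm2 was at 23.2, 22.6 and 22.2 CPM in controls and at 16.6, 17.5 and 16.6 with IL-1β. Its groups were also well apart, with a log2 fold change of −0.42 ± 0.13 (SE) and an adjusted p of 0.0333, although this call was lost when any single library was left out (adjusted p 0.0617 to 0.105). Mcm6 lies at chr1:128331591-128359656 and Mcm2 at chr6:88883474-88898780, both on the minus strand.

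The other 4 MCM subunits did not pass the test. Mcm7 was at 53.4, 51.6 and 51.7 CPM in controls and at 44.0, 46.7 and 49.5 with IL-1β, lower in every sample but with a log2 fold change of −0.16 and an adjusted p of 0.335. In Mcm7, 21.0% of the read-length windows at the 3′ end also occur in another gene, and Cops6 overlaps the end on the opposite strand with a log2 fold change of −0.11. Mcm3 and Mcm5 had log2 fold changes of −0.07 and −0.21. Mcm4 had one of −0.41 with a wide 95% interval from −0.83 to 0.01, and it passed only when the second control was left out (−0.63, adjusted p 0.0454). Of the reads of all 6 subunits, Mcm6 held 23%, 23.5% and 22.4% in controls and 17.9%, 16.4% and 18.3% with IL-1β. Mcm3 held 20.7%, 20.6% and 20.8% in controls and 24.1%, 24.5% and 24.1% with IL-1β. The share of Mcm2 overlapped between groups (12.6% to 13.9% against 11.6% to 12.6%). Parts of a fixed total move against each other, and the own level of Mcm3 overlapped between the groups, so its larger share is no rise of Mcm3. These shares do not depend on the scaling between libraries.

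**Figure D2:**
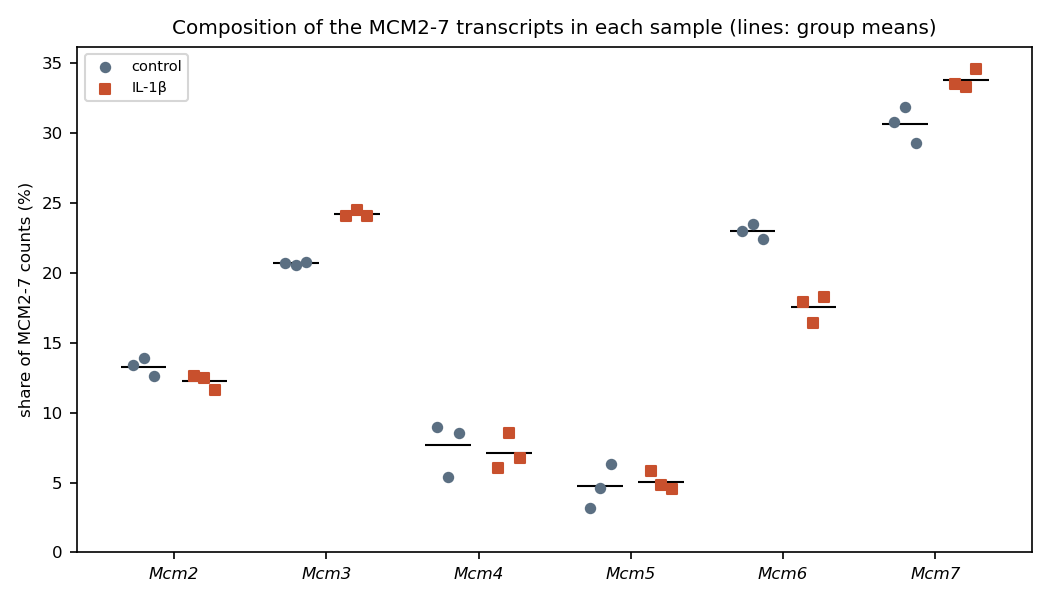
Share of the reads of Mcm2 to Mcm7 together (percent, y axis) held by each subunit in the 3 control and 3 IL-1β samples (points) with group means (lines). Mcm6 held 22.4–23.5% in controls and 16.4–18.3% with IL-1β, and Mcm3 and Mcm7 held larger shares of this fixed total with IL-1β without a higher level of their own.

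Pcna, the sliding clamp of DNA polymerase, was at 19.1, 22.3 and 24.7 CPM in controls and at 25.6, 25.1 and 26.9 with IL-1β. Every IL-1β sample was higher, with a log2 fold change of 0.23 (95% interval −0.02 to 0.48) and an adjusted p of 0.294. Rrm1, the large ribonucleotide reductase subunit, and Tyms, which makes thymidylate, had log2 fold changes of −0.07 and −0.14. Rrm2, the small subunit that is made mainly in S phase, had 8, 7 and 3 counts in controls and 4, 9 and 7 with IL-1β.

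Mitotic transcripts were scarce in both groups, and the 2 that fell rest on few counts. Top2a, the topoisomerase that untangles sister chromatids, was at 2.91, 3.76 and 2.12 CPM (31, 42 and 21 counts) in controls. It was at 1.18, 1.15 and 1.12 CPM (11, 12 and 12 counts) with IL-1β. The IL-1β samples were nearly equal and below every control. The log2 fold change was −1.35 ± 0.42 (SE) with an adjusted p of 0.0335 by edgeR. Birc5, which encodes survivin, a part of the chromosomal passenger complex, was at 3.48, 3.13 and 1.91 CPM (37, 35 and 19 counts) in controls. It was at 0.962, 0.576 and 1.49 CPM (9, 6 and 16 counts) with IL-1β. The groups did not overlap, but the third control and the third IL-1β sample came close. Its log2 fold change was −1.48 ± 0.46 (SE) with an adjusted p of 0.0314. The Top2a call was lost in 5 of the 6 fits without a single library, all but the one without the third control (adjusted p 0.0632 to 0.188 where lost). The Birc5 call was lost in 4, those without the first or second sample of either group (0.107 to 0.171). Top2a lies at chr11:98992947-99024189 on the minus strand and Birc5 at chr11:117849237-117855743 on the plus strand.

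No other mitotic member passed the test. Mki67, which encodes the Ki-67 antigen of cycling cells, had 1, 14 and 8 counts in controls and 10, 6 and 7 with IL-1β, a sum of 23 in each group. The first control was lowest and the second highest, so that the IL-1β samples lay inside the control range. Aurka had a log2 fold change of −0.04 (95% interval −0.85 to 0.77), and Plk1, a mitotic polo-like kinase, had 28 counts in controls and 22 with IL-1β. Aurkb, the kinase partner of survivin, had no group overlap, with 1, 0 and 1 counts in controls and 9, 3 and 12 with IL-1β. Its sums of 2 and 24 counts gave a ratio per total counts of 12.0 with a 95% counting interval from 2.99 to 105.0. Without the filter on low counts edgeR gave it an unadjusted p of 0.0112 and an adjusted p of 0.0899 over 16189 genes, so it did not pass. A library's 3 counts, taken as the limit of detection, equal 0.2685 to 0.3207 CPM, and intervals and limits of this kind cover counting error only.

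Plk2, a polo-like kinase induced by stress and by growth signals outside mitosis and a known p53 target, rose with the smallest adjusted p of the members. It was at 25.5, 25.8 and 27.9 CPM in controls and at 47.8, 43.6 and 41.7 with IL-1β. The lowest IL-1β sample was far above the highest control. On the log2 scale it changed by 0.75 ± 0.11 (SE) with an adjusted p of 1.44e-05 by edgeR, and the gene lies at chr13:110395044-110400843 on the plus strand. Plk3, its nearest relative among the members, had a log2 fold change of −0.17 with an adjusted p of 0.646. Of the reads of both, Plk2 held 69.5%, 67.4% and 68.1% in controls and 80.0%, 80.4% and 80.5% with IL-1β. The 3′ end of Plk3 overlaps Tctex1d4 on the opposite strand, which was at 8.19 CPM in controls and 8.1 with IL-1β.

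**Figure D3:**
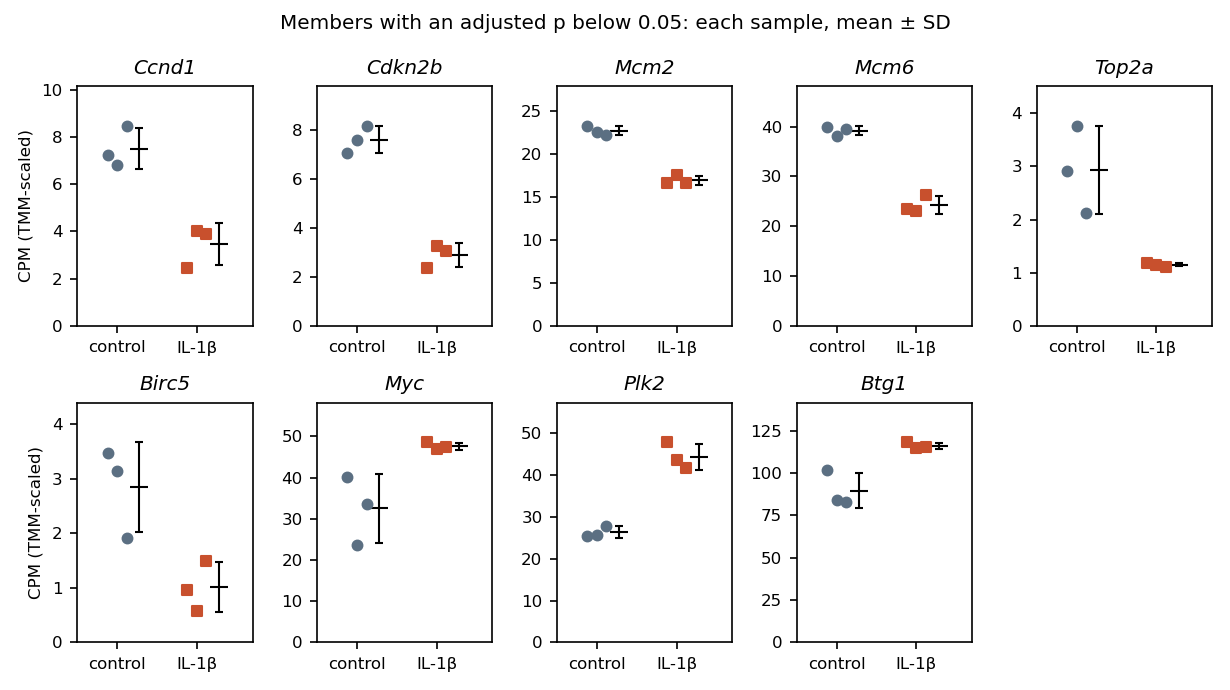
CPM in each control and IL-1β sample (points) with mean and SD (bars) for the 9 members that changed, each panel on its own linear axis from 0. Mcm2, Mcm6 and Plk2 show tight groups, whereas Top2a and Birc5 lie below 4 CPM throughout.

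Of p53, its inhibitor and the genes grouped with them, 1 of 7 passed the test (14.3%), near the 13.4% of all genes tested. This was Btg1. Of the p53 targets placed in other groups, Plk2 rose and Cdkn1a did not pass. Trp53, which encodes p53, was at 38, 20.8 and 27.7 CPM in controls and at 32.5, 23.2 and 26.1 with IL-1β. The groups overlapped, with a log2 fold change of −0.08 (95% interval −0.40 to 0.24), and its sign turned without the first control (0.17). Mdm2, the ubiquitin ligase that p53 induces and that degrades it, was at 173, 170 and 176 CPM in controls and at 159, 172 and 161 with IL-1β. The second IL-1β sample lay among the controls, and the 95% interval of the log2 fold change ran from −0.21 to 0.06. Trp53inp1, a stress-induced nuclear partner of p53, had a log2 fold change of 0.09 (95% interval −0.04 to 0.22). The values were −0.05 (−0.23 to 0.14) for Ccng1, an atypical cyclin gene induced by p53, and −0.15 (−0.62 to 0.32) for Phlda3, an AKT inhibitor. With Cdkn1a, these intervals were narrow in the abundant genes and left room for larger changes in Phlda3.

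Btg1, an antiproliferative gene of the BTG/TOB family that recruits the deadenylase complex, was at 102, 84.3 and 82.9 CPM in controls and at 118, 115 and 115 with IL-1β. The first control was nearest to the IL-1β samples but still below them. The log2 fold change was 0.37 ± 0.08 (SE) with an adjusted p of 0.00268 by edgeR, and the gene lies at chr10:96617001-96622811 on the plus strand. Of the read-length windows at its 3′ end, 9.15% also occur in another gene. Btg2, its p53-induced relative, had a log2 fold change of −0.16 (95% interval −0.34 to 0.03) and an adjusted p of 0.334. Btg1 held 63.5%, 60.7% and 57.4% of the reads of both in controls and 68.3%, 70.2% and 68.6% with IL-1β.

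**Figure D4:**
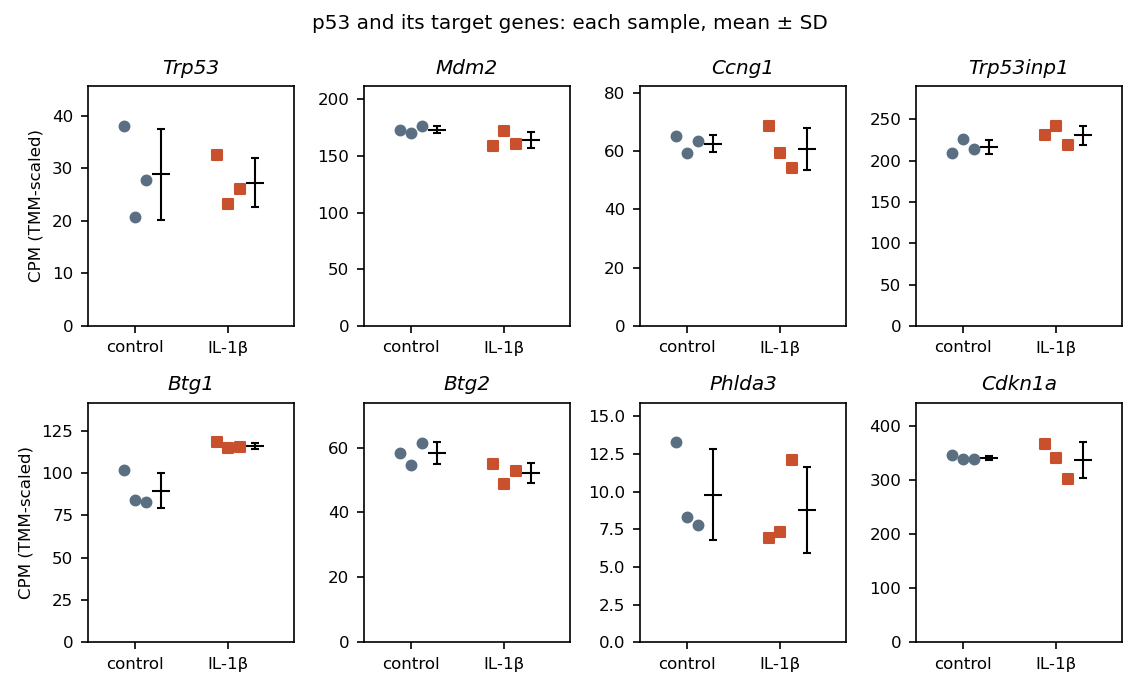
CPM in each control and IL-1β sample (points) with mean and SD (bars) for Trp53, Mdm2, the genes grouped with them and Cdkn1a, each panel on its own linear axis from 0. The groups overlap in every panel but that of Btg1, where all IL-1β samples lie at 114.9 CPM or above. The p53 target Plk2 is in the plot of the members that changed.

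Levels summed over each role group are given as a description, without a test. The replication group summed to 207–224 CPM in controls and 175–188 with IL-1β, and the mitotic group to 7.46–11.3 and 5.28–7.06. The mean of the mitotic sum went from 9.38 to 6.34 CPM, with Top2a from 2.93 to 1.15 and Birc5 from 2.84 to 1.01. Aurka (1.95 to 1.9) and Plk1 (0.871 to 0.733) went down less, and Mki67 (0.718 to 0.765) and Aurkb (0.0649 to 0.789) went up. RB, E2F and Myc together summed to 65.5–77.2 and 81.3–89.4 CPM, a sum in which Myc is the largest part. The p53 group overlapped at 624–658 and 641–671 CPM, as did the CDK inhibitors at 367–378 and 329–389, a sum mostly of Cdkn1a. Plk2 and Plk3 together summed to 36.6–41.0 CPM in controls and 51.9–59.8 with IL-1β. The D-type cyclins with their kinases overlapped at 89.3–91.2 and 79.4–90.1 CPM, and the E, A and B cyclins with theirs at 110–124 and 104–110.

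Other genes of these pathways were read from lists that hold no member. Of 48 tested genes of S-phase entry and DNA replication, 3 fell (6.25%) and 1 rose (2.08%), with a median log2 fold change of −0.10. Over all genes tested 6.44% fell and 6.97% rose. Tk1, the thymidine kinase of S phase, had 14, 33 and 40 counts in controls and 6, 5 and 1 with IL-1β (log2 fold change −2.76 ± 0.60, edgeR adjusted p 0.00203). E2f6, a repressing E2F, fell (−0.38, adjusted p 0.0188), a call lost without the third control or the third IL-1β sample (0.0537 and 0.126). Orc5, an origin recognition subunit, rose just past the threshold (0.43, adjusted p 0.0484) and did not pass in DESeq2 or limma (0.0679 and 0.0626).

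No mitotic gene outside the members passed the test. Of 48 in the list, 19 had too few counts to be tested. The other 29 had a median log2 fold change of −0.07, with 17 below 0 and 12 above. Scarce genes had wide errors, such as Cenpf (−0.755 ± 0.521, SE) and Spc24 (0.706 ± 0.587, SE). Of the 29 tested, 0 passed the threshold in edgeR, DESeq2 or limma and 2 had an unadjusted p below 0.05. The fall of Top2a and Birc5 thus had no called counterpart there, but low counts limited what could be called. Of 13 tested p53 regulators and relatives, 0 passed in any of these tools and 1 had an unadjusted p below 0.05 in edgeR. Both lists are to be read beside all 11657 genes tested in edgeR, of which 13.4% passed and 2746 had an unadjusted p below 0.05. Of 33 tested p53 targets outside the members, 2 rose (6.06%) and 1 fell (3.03%), with a median of 0.06. Over all genes tested 6.97% rose and 6.44% fell. Fas, a death receptor gene that is also raised by NF-κB, went from 6.76, 7.07 and 9.07 CPM to 17, 15.9 and 16.4 (log2 fold change 1.11 ± 0.18, adjusted p 6.46e-05). Sesn2, a stress-induced regulator of mTORC1, rose (0.94 ± 0.31, adjusted p 0.0484), a call kept without the first control but lost without any other single library (0.0553 to 0.205). Ephx1, microsomal epoxide hydrolase, fell (−0.41, adjusted p 0.000449).

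Among 27 further cyclins, CDKs and CDK inhibitors 1 changed (3.7%), against 13.4% of all genes tested. This was Cdk7, a kinase that activates other CDKs (−0.40, edgeR adjusted p 0.0355). Its call was lost without the first control or the second or the third IL-1β sample (0.138 to 0.207). In the Myc network and BTG/TOB family 3 of 17 rose and none fell in edgeR, DESeq2 or limma. The share that rose in edgeR was 17.6%, against 6.97% of all genes tested. Pim1, a kinase gene induced by cytokines, went from 48.8, 51.8 and 52.0 CPM to 97.9, 104.0 and 109.1 (log2 fold change 1.03 ± 0.08, adjusted p 1.09e-09). Its relative Pim3 and the family member Btg3 rose less (0.32, adjusted p 0.00771, and 0.41, adjusted p 0.0183). Both lost their call without the second IL-1β sample (0.095 and 0.0919), and Btg3 also without the first control (0.0765). Myc and Btg1 therefore rose beside a few related genes, while the median of that list was 0.04.

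**Figure D5:**
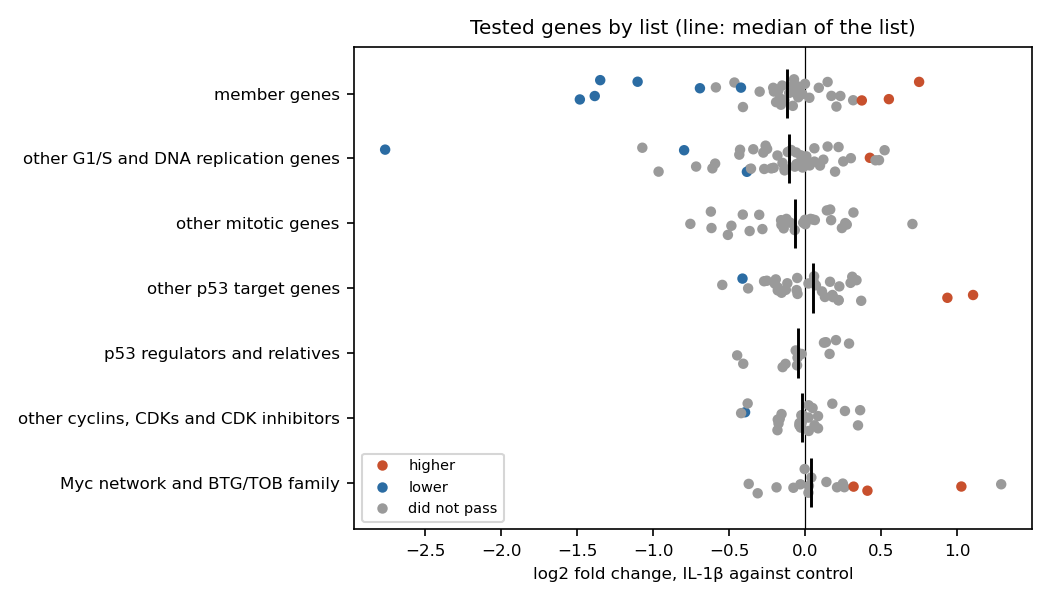
Log2 fold change (IL-1β over control, points) of each tested member and each tested gene of the 6 related lists (rows), with the list median (line) and genes past the threshold in colour. The medians lie between −0.12 and 0.06, and single genes such as Tk1, Fas and Pim1 stand apart.

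Total counts per library ran from 9538741 to 11105408, of which the ribosomal precursor Rn45s took 11.69% to 14.19%. Of the hepatocyte markers, Alb was at 16200 ± 516 CPM in controls and 14100 ± 577 with IL-1β, but Cps1 was only at 2.65 and 2.06 CPM. Of 7 hepatocyte markers 6 fell, against 6.44% of all genes tested. The sum of the 7, mostly Alb, went from 20600–20800 to 17000–17900 CPM. Markers of other liver cells were detected as well. The 12 Kupffer cell and macrophage markers summed to 244–275 CPM in controls and 249–280 with IL-1β, a sum mostly of Cd68 (192.4 ± 17.36 and 184.1 ± 12.31 CPM). Clec4f, Vsig4 and Timd4 had only 53, 17 and 2 counts over all libraries and were not tested. None of the 9 tested passed, with 6 above 0 and 3 below and a median log2 fold change of 0.44. The 7 endothelial markers summed to 48.6–52.4 CPM in controls and 45.9–50.1 with IL-1β. Of the endothelial markers Kdr and Clec4g fell (log2 fold changes −1.49 and −2.87) and Lyve1 rose (0.45). The 6 cholangiocyte markers summed to 316–329 CPM in controls and 236–240 with IL-1β, a sum mostly of Spp1 and Sox9. Spp1 fell (log2 fold change −1.20). Sox9 went the other way, from 133.7 ± 5.31 to 154.6 ± 5.86 CPM. It was higher in every IL-1β sample but did not pass (log2 fold change 0.21, edgeR adjusted p 0.0519). Krt19, Krt7 and Epcam had 0 to 6 counts in every library. Of 8 lymphocyte and neutrophil markers, which summed to 1.79–4.04 and 3.96–8.27 CPM, Cd3e, Cd79a, Ms4a1 and S100a9 were at 0 counts in every library. The leukocyte gene Ptprc had 18 to 42 counts, and S100a8 rose from 0 counts in each control to 19, 36 and 51 (edgeR adjusted p 2.19e-06). The part that non-hepatocytes had in the levels of Ccnd1, Cdkn2b, Top2a, Birc5 and the other members was not tested.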

How the data were processed

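The authors deposited a table of raw read counts per gene for 6 QuantSeq libraries (single-end reads of 75 nt), made, per the submitters' processing notes, with Bowtie2 on mm10 (GRCm38). The counting tool, its strand setting and its handling of reads that match several genes are not given in the sources used here. Opposite-strand genes also overlap the 3′ ends of Ccne2 (Ints8) and Rb1 (Rcbtb2). The table also holds normalized log2 values, group averages, fold changes and p-values, and none of these was used.

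Groups came from the sample labels. The counts were fitted by edgeR 4.0.16 under R 4.3.3 (filterByExpr, TMM, quasi-likelihood test), with Benjamini-Hochberg adjustment across all 11657 genes that passed the filter and a threshold of 0.05. Standard errors were taken as the absolute log2 fold change over the square root of F, and the 95% interval is built from it. The filter removed 6 members (Ccnb1, Cdkn2a, Rrm2, Mki67, Aurkb and Plk1). Depth was 9538741 to 11105408 counts per library, which sets the precision of low genes.

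The members and the lists of related genes, markers and motifs were chosen with earlier results of these data known. Values per sample are given for members that passed the threshold, for those whose groups do not overlap, and for Mki67, Top2a, Ccnb1, Ccna2, Cdk1, Pcna, Trp53 and Mdm2. Those of Cdkn1a, Rrm2, Cdkn2a and Plk1 were added after they were seen. From each related list at most 4 genes past the threshold, those with the smallest adjusted p, are named. An item that would fall under this rule is not reported here. Alternatives were other scalings and filters, DESeq2 1.42.0, limma 3.58.1 on log2(CPM + 1), a threshold of 0.01, the replicate number as a block, and leaving out each library. Promoters came from RefSeq tables, and overlaps of 3′ ends from a GRCm38 annotation, with windows of 75 nt over the last 500 nt of each gene.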

Additional observations from a re-analysis of the deposited data

How the results depend on the processing

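With all 6 libraries, the 9 members that changed stayed on the same side of 0 and past the threshold of 0.05 under every other scaling, filter and test in which they were tested, with Birc5 left untested when 10 counts in every library were required, and also without Rn45s, an alternative added after seeing the data. The counts of members that rose and fell without a single library were 3 in each fit and 3 to 5. At an adjusted p below 0.01 the members that fell were 3, and over all genes 537 rose and 459 fell. All-gene counts without a single library were 614 to 875 higher and 517 to 721 lower. Under total counts without TMM factors the median of all genes moved to −0.06 on the log2 scale and 39.6% of calls were higher, against 52.0%, and the members without overlap were 16, a recount that was added after seeing the data. The S-phase and replication list had 0 higher calls under upper-quartile scaling, total counts, DESeq2, limma and the threshold of 0.01, and 0 to 1 higher and 2 to 3 lower without a single library. Other p53 targets had 1 higher call under upper-quartile scaling, total counts and the threshold of 0.01, and 2 lower under total counts, with 1 to 4 higher without a single library. Further cyclins and CDKs had 0 lower calls at the threshold of 0.01, and 0 to 1 higher and 0 to 1 lower without a single library, and the Myc network 1 to 4 higher. The cause of these shifts was not tested. Fits that leave a library out also have fewer libraries, which cannot be told apart from the choice of library.

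No member that changed sign had passed the threshold. Ccna2 turned to 0.001 with relative log expression factors, 0.002 with at least 10 counts in every library and 0.001 in DESeq2, and E2f3 to −0.002 under upper-quartile scaling and −0.025 under total counts. With a single library left out, the log2 fold change crossed 0 in these members: Ccnd2 −0.12 to 0.008, Cdk6 −0.17 to 0.38, Ccne2 −0.19 to 0.028, Ccna2 −0.037 to 0.033, Ccnb2 −0.14 to 0.95, Cdkn1a −0.077 to 0.058, Cdkn2c −0.54 to 0.38, E2f3 −0.058 to 0.14, Mcm5 −0.42 to 0.089, Rrm1 −0.23 to 0.068, Aurka −0.16 to 0.076, Trp53 −0.27 to 0.17, Ccng1 −0.13 to 0.036 and Phlda3 −0.45 to 0.13.

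The replicate numbers name no shared animal or culture, and deviations of same-numbered samples correlated at 0.062, 0.008 and 0.004 over genes, so the numbers were not taken to pair the samples. With the replicate block 3 members rose and 6 fell, and over all genes 859 rose and 812 fell. Depth limits the 9 members with under 10 counts in some library, Ccnb1, Ccnb2, Cdkn2a, Cdkn2c, Rrm2, Mki67, Birc5, Aurkb and Plk1.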
